A study of Caenorhabditis elegans with 12 samples.

Results

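Whole worms exposed to the highest dose of AO168=O in the series, 10000 ng/g of agar, were compared with worms exposed to the lowest dose, 400 ng/g. The comparison used the 6 libraries that the sample labels place at these doses, 3 at each, out of 12 in the series, and the 16665 of 46987 annotated features that passed a low-count filter. The worms were Caenorhabditis elegans of the Bristol N2 strain, collected whole at the L4 larval stage after growth from the embryo for about 46 h at 25 °C, with about 1000 worms in each poly(A) RNA library. All 4 groups (the control without compound and the doses of 400, 2000 and 10000 ng/g) carried 0.01% ethanol and were fed Escherichia coli OP50, no group carried a mutation or a transgene, and the labels name a single batch with independent replicates. The question was which genes separate the ends of the dose range, with the control (0 ng/g) and the middle dose shown beside them.

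AO168=O is the phosphate that forms when a phosphite antioxidant used in plastics is oxidised, and it is an aryl organophosphate ester. The pals genes encode proteins with the ALS2CR12 signature and are best known in C. elegans from the intracellular pathogen response, a transcriptional programme seen when intestinal cells are infected by microsporidia or a virus and when the proteasome is blocked. Glutathione S-transferases join glutathione to foreign and reactive compounds, and long-chain fatty acid elongases of the worm build, among others, the branched-chain fatty acids that it makes itself.

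Libraries held 40364995 to 47211800 counts at the lower dose and 36897811 to 45382586 at the higher. The libraries at 400 ng/g resembled each other less than those at 10000 ng/g did. Spearman coefficients on log2 CPM were 0.964 to 0.985 within the lower dose, 0.988 to 0.993 within the higher and 0.974 to 0.987 between them. On the first principal component (31.3% of the variance), replicates 1, 2 and 3 at 400 ng/g lay at 23.4, 67.1 and 10.8. The libraries at 10000 ng/g lay between -2.07 and 33.1 on it. Replicates 1 and 2 at 400 ng/g lay far apart on the second principal component (24.8% of the variance), at -65.1 and 40.7. Replicate 3 lay at 20.9 there, and the libraries at 10000 ng/g between -37.3 and -17.4. Markers that define the tissues of a whole worm were present: 10 of 12 for intestine, 10 of 10 for hypodermis, 9 of 9 for neurons, 9 of 9 for germ line and 9 of 10 for sperm passed the filter. Because the number of genes called changed most when replicate 1 at 400 ng/g was left out, counts of genes are given with and without it. The calls also depended on other libraries, without some of which no gene passed, as given below.

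At 10000 ng/g, 16 genes were higher than at 400 ng/g and none was lower at an edgeR adjusted p under 0.05. These 16 genes were 0.0960% of the genes tested, against 0% lower. They comprised pals genes and other genes with the ALS2CR12 signature, the glutathione transferase gst-19, the fatty acid elongase elo-5, the aspartyl protease asp-12, the C-type lectin clec-17, and 5 genes that encode an F-box protein, a transporter-like protein or proteins known mainly by their domains. At an unadjusted p under 0.05, 753 genes (4.52%) were higher and 830 (4.98%) were lower. In 1118 genes (6.71%) all 3 libraries at 10000 ng/g lay above all 3 at 400 ng/g, and in 1054 (6.32%) they lay below. The median log2 fold change (10000 minus 400 ng/g throughout) over all genes tested was -0.01.

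The log2 fold changes of the 16 genes ran from 0.78 to 3.10, with a median of 1.61, and 13 of the 16 were at least 2-fold higher. In all 16, each library at 10000 ng/g was above all 9 other libraries of the series. The range of the libraries at 400 ng/g overlapped that of the controls in 12 of them. The 4 exceptions were gst-19, whose 400 ng/g libraries were above the controls, and asp-12, F53F1.6 and fbxa-136, whose 400 ng/g libraries were below the controls. The mean at 2000 ng/g lay between the means at 400 and 10000 ng/g in 13 genes. It lay below the mean at 400 ng/g in F42C5.3, fbxa-136 and clec-17. On the deposited FPKM scale, which corrects for gene length, mean levels at 10000 ng/g ran from 1.2 for fbxa-136 to 555.9 for asp-12.

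**Figure D1:**
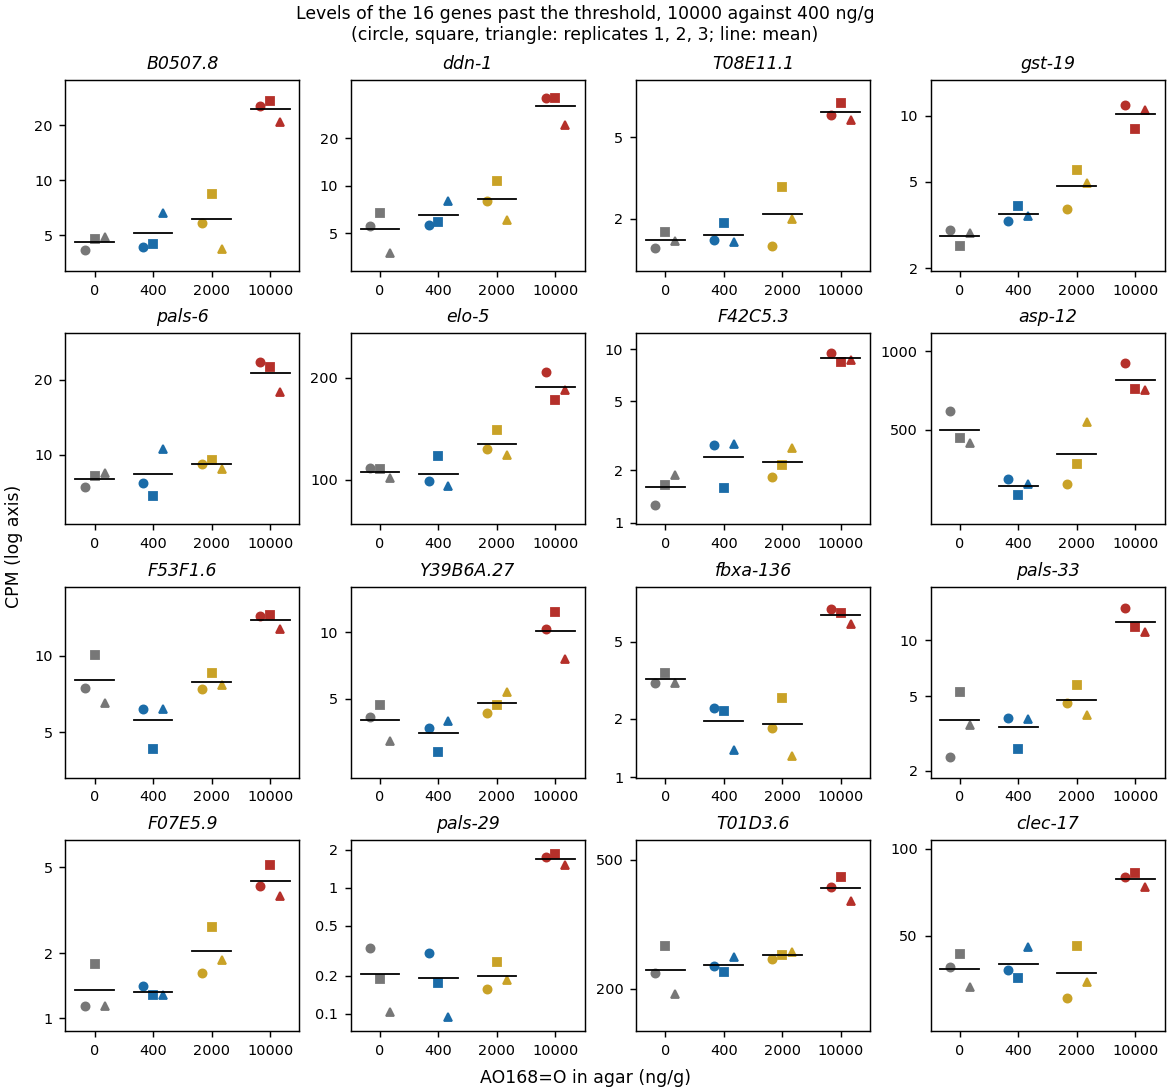
CPM on log axes (y) in each of the 12 libraries by AO168=O dose in ng/g (x) for the 16 genes past the threshold, with a line at each group's mean. In every panel the 3 libraries at 10000 ng/g lie above the other 9 libraries, and asp-12 reaches a mean of 775.4 CPM against 305.0 at 400 ng/g.

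The number of calls moved with the libraries in the fit. Without replicate 1 at 400 ng/g all 16 genes passed, among 365 higher and 375 lower, as described further on. No gene passed when replicate 2 at 400 ng/g, replicate 1 at 10000 ng/g or replicate 2 at 10000 ng/g was left out, 3 passed without replicate 3 at 400 ng/g, 5 passed without replicate 3 at 10000 ng/g and 8 without replicate 1 at 2000 ng/g. A fit with only the 6 libraries called none, with a lowest adjusted p of 0.058 and 1017 genes at an unadjusted p under 0.05, while DESeq2 on all 12 libraries called 119 higher and 43 lower, including all 16.

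Genes with the ALS2CR12 signature were the largest group among those that rose. They made up 7 of the 16 genes, against 37 of the 16665 genes tested (0.222%): pals-6, pals-29, pals-33, ddn-1, B0507.8, F42C5.3 and F53F1.6. Of the 38 annotated pals genes, 32 passed the filter, 3 rose, none fell, and 27 had a positive log2 fold change. The median over the 32 was 1.35 beside -0.01 over all genes. In 19 of the 32 (59.4%) the libraries at 10000 ng/g lay above those at 400 ng/g without overlap, beside 6.71% of all genes. A gene can pass the low-count filter through the dose at which it is high, so these counts describe the 32 genes only. Similar copies in this family may share reads, and the counts do not show how such reads were assigned.

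The level of pals-6 (WBGene00007660, chromosome I, 13136390 to 13138544) was 7.70, 6.80 and 10.5 CPM at 400 ng/g (replicates 1, 2 and 3, the order used throughout) and 23.7, 22.6 and 17.9 CPM at 10000 ng/g. The groups did not overlap, and the controls at 7.42, 8.19 and 8.4 CPM lay within the range at 400 ng/g. The log2 fold change was 1.36 ± 0.17 (SE), at an adjusted p (edgeR) of 0.0137. For pals-33 (WBGene00021081, chromosome V, 3673380 to 3676632), levels were 3.83, 2.63 and 3.80 CPM at 400 ng/g and 14.9, 11.8 and 11 CPM at 10000 ng/g. Its log2 fold change was 1.88 ± 0.28 at an adjusted p (edgeR) of 0.0319. The gene pals-29 (WBGene00012091, chromosome IV, 14539685 to 14542617) had the largest fold change of the 16. It was measured at 0.31, 0.18 and 0.09 CPM at 400 ng/g and at 1.74, 1.84 and 1.52 CPM at 10000 ng/g, a log2 fold change of 3.10 ± 0.49 at an adjusted p (edgeR) of 0.0479.

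Several pals genes beside pals-6 on chromosome I lay high at 10000 ng/g but missed the threshold, and are named after their values were seen. Within 10000 nt of pals-6, the log2 fold change was 1.58 for pals-14 (adjusted p = 0.0871 in edgeR), 1.5 for pals-15, 2.19 for pals-5, 1.93 for pals-9 and 2.68 for pals-7 (edgeR adjusted p from 0.191 to 0.329 for these 4). In each of these 5 genes the 3 libraries at 10000 ng/g were above the 3 at 400 ng/g. For pals-14 the levels were 5.82, 3.79 and 8.36 CPM at 400 ng/g and 20.7, 17.7 and 15.4 CPM at 10000 ng/g. Beyond that distance on chromosome I, pals-4 and pals-2 had log2 fold changes of 2.34 and 1.82. On chromosome III, pals-28 and pals-26 had 2.41 and 1.72. These 4 were without overlap and did not pass either (edgeR adjusted p from 0.165 to 0.338). Not all of the 19 pals genes higher without overlap are named here, and in some other members the groups overlapped. Together with pals-6, pals-23 had the highest CPM of the family, at 17.8, 10.6 and 16.1 CPM at 400 ng/g and 18.6, 16.1 and 17.1 CPM at 10000 ng/g, groups that overlapped. Its log2 fold change was 0.21 ± 0.17 at an adjusted p (edgeR) of 0.687. The gene pals-22, a known repressor of the intracellular pathogen response, had a log2 fold change of -0.07, and pals-25, known as its opposing partner, one of 0.30, with edgeR adjusted p values of 0.899 and 0.658.

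On chromosome V the adjacent genes ddn-1 (WBGene00015227, 8758820 to 8760516) and B0507.8 (WBGene00015225, 8760622 to 8762961), 106 nt apart on the same strand, both rose. Levels of ddn-1 were 5.65, 5.92 and 8.0 CPM at 400 ng/g and 35.9, 36.2 and 24.5 CPM at 10000 ng/g, so the lowest library at 10000 ng/g was well above the highest at 400 ng/g. Levels of B0507.8 were 4.33, 4.47 and 6.62 CPM against 25.5, 27.3 and 20.8 CPM. Replicate 3 was the highest at 400 ng/g and the lowest at 10000 ng/g in both genes. The log2 fold changes were 2.3 ± 0.27 for ddn-1 and 2.25 ± 0.25 for B0507.8, each at an adjusted p (edgeR) of 0.0137. Of their neighbours, B0507.7 differed by 2.32 on the log2 scale (adjusted p in edgeR = 0.266) and B0507.6 one of 1.43 (edgeR adjusted p = 0.226), neither past the threshold.

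F42C5.3 (WBGene00018345, chromosome IV, 7286097 to 7287574) was at 2.81, 1.58 and 2.83 CPM at 400 ng/g and at 9.48, 8.45 and 8.66 CPM at 10000 ng/g. The groups were well separated, and the log2 fold change was 1.88 ± 0.25 at an adjusted p (edgeR) of 0.0204. F53F1.6 (WBGene00009984, chromosome V, 13416096 to 13417613) was at 6.19, 4.29 and 6.20 CPM at 400 ng/g and at 14.4, 14.5 and 12.8 CPM at 10000 ng/g, a log2 fold change of 1.32 ± 0.19 at an adjusted p (edgeR) of 0.0282. F53F1.6 was the only one of the 16 genes whose libraries at 400 ng/g were all below the other 9 libraries: the controls had 7.44, 10.1 and 6.53 CPM.

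Genes of the intracellular pathogen response outside the pals family gave mixed values. Of 18 such genes, 16 passed the filter and 3 rose (ddn-1, B0507.8 and F42C5.3), with a median log2 fold change of 0.53. In 8 of the 16 (50.0%) the groups did not overlap, all with 10000 ng/g higher, beside 6.71% of all genes. The cullin cul-6, part of a ubiquitin ligase of this response, was at 3.43, 3.97 and 4.37 CPM at 400 ng/g and 6.74, 5.92 and 5.73 CPM at 10000 ng/g, without overlap, but at a log2 fold change of 0.65 ± 0.19 its edgeR adjusted p was 0.36. The RNA-decapping-related gene eol-1 differed by 1.12 on the log2 scale (adjusted p in edgeR = 0.329). The genes with the highest CPM in this list, pnp-1 (purine nucleoside phosphorylase) and skr-3 (a Skp1-related protein), had log2 fold changes of -0.12 and 0.21, and both pairs of groups overlapped. The edgeR adjusted p was 0.805 for pnp-1 and 0.646 for skr-3. The transcription factor zip-1, a known activator within this response, differed by 0.24 on the log2 scale (adjusted p in edgeR = 0.513).

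Averaged over the 32 pals genes, log2 CPM minus the control mean came to 0.44, -0.20 and 0.28 at 400 ng/g, between 0.17 and 0.38 at 2000 ng/g, and 1.51, 1.44 and 1.18 at 10000 ng/g. The average over the 16 other genes of the response was -0.16, -0.03 and 0.30 at 400 ng/g and 0.96, 0.95 and 0.94 at 10000 ng/g. In both lists all libraries at 400 and 2000 ng/g lay nearer to the controls than to the libraries at 10000 ng/g.

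**Figure D2:**
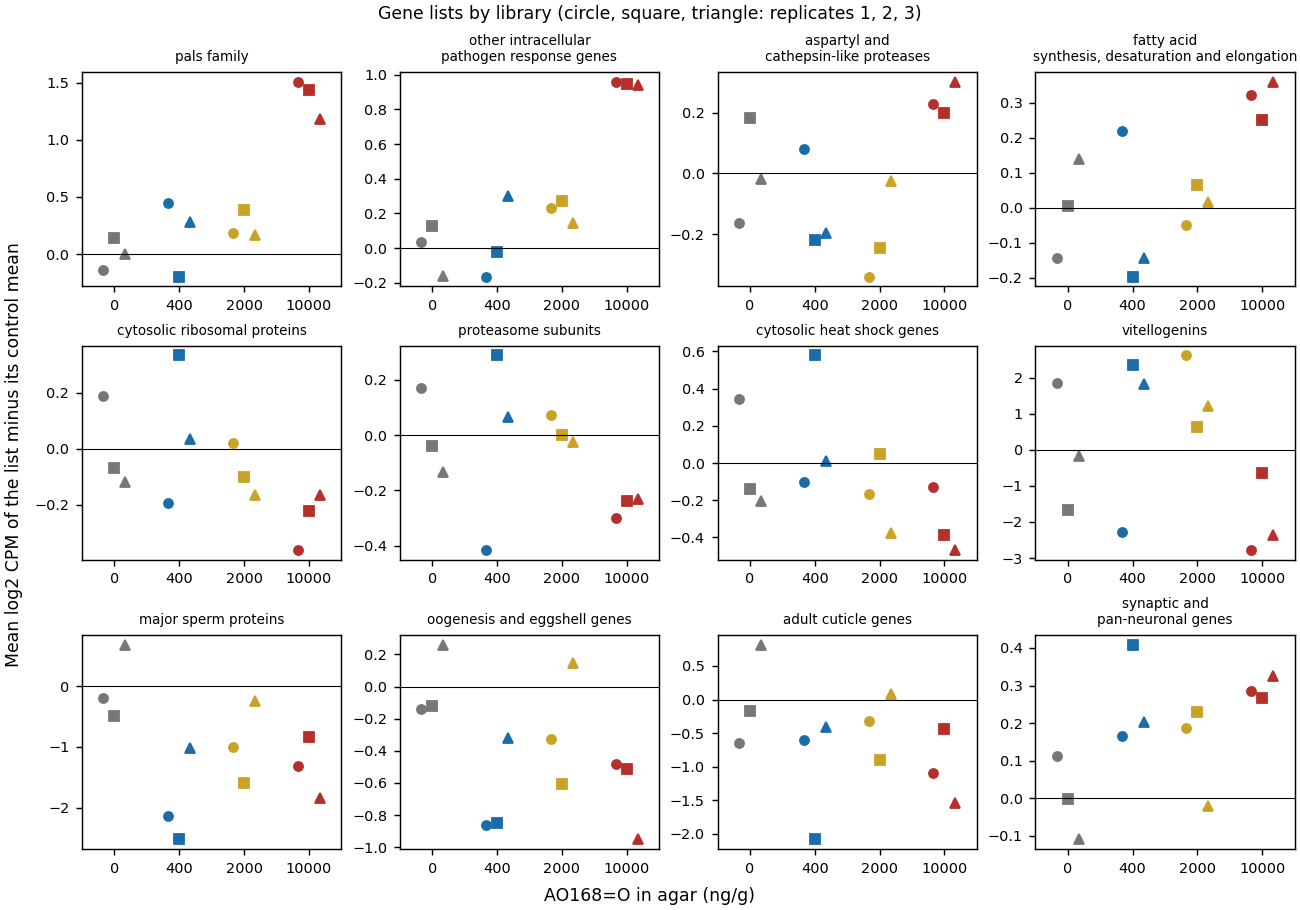
Mean log2 CPM of 12 gene lists minus the list's mean in the controls (y, each panel with its own scale) in the 12 libraries by dose in ng/g (x). The pals family and the other intracellular pathogen response genes stand at 1.18 to 1.51 and 0.94 to 0.96 in the libraries at 10000 ng/g, while in vitellogenins, ribosomal proteins and proteasome subunits replicate 1 at 400 ng/g lies among the libraries at 10000 ng/g or below them.

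Among the genes for detoxification, gst-19 alone passed the threshold. This glutathione S-transferase (WBGene00001767, chromosome II, 13625545 to 13627145) was at 3.29, 3.85 and 3.49 CPM at 400 ng/g and at 11.3, 8.69 and 10.6 CPM at 10000 ng/g. The groups did not overlap, and the controls (2.99, 2.52 and 2.9 CPM) were below both. Its log2 fold change was 1.53 ± 0.19 at an adjusted p (edgeR) of 0.0137. Of 44 glutathione transferase genes tested, 1 rose and none fell, 30 had a negative log2 fold change and the median was -0.16. The neighbouring gst-14 and gst-12, within 10000 nt of gst-19 and named after their values were seen, had log2 fold changes of -1.78 and -0.88 with edgeR adjusted p values of 0.471 and 0.481. Levels of gst-6 were 37.4, 50.2 and 36.7 CPM at 400 ng/g and 24.3, 26.3 and 25.2 CPM at 10000 ng/g, without overlap, yet with a log2 fold change of -0.71 its edgeR adjusted p was 0.263.

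None of the 71 cytochrome P450 genes, which oxidise foreign and endogenous compounds, passed in either direction, with a median log2 fold change of -0.07. The same held for 63 UDP-glucuronosyltransferases (median -0.16), 54 ABC transporters (median 0.05), 208 nuclear hormone receptors (median -0.02) and 27 antioxidant enzymes (median -0.11). At an unadjusted p under 0.05, these 5 lists held 0, 3, 5, 9 and 0 genes higher and 5, 8, 4, 17 and 3 lower.

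The elongase gene elo-5, which encodes an enzyme needed for monomethyl branched-chain fatty acids, rose (WBGene00001243, chromosome IV, 5374616 to 5377117). Its level was 98.9, 117.7 and 96.1 CPM at 400 ng/g and 208.1, 172.4 and 183.6 CPM at 10000 ng/g, and the controls at 101.4 to 108.2 CPM fell within the range at 400 ng/g. The log2 fold change was 0.85 ± 0.11 at an adjusted p (edgeR) of 0.0198. Annotated F41H10.3 overlaps elo-5, and reads of both cannot be told apart where the counting ignores strand; its own log2 fold change was -0.09. The gene elo-6, 9512 nt away and known to act on the same fatty acids, did not pass: 316.6, 296.4 and 247.8 CPM stood against 490.6, 424.5 and 493.8 CPM, a log2 fold change of 0.71 ± 0.12 at an adjusted p (edgeR) of 0.0719.

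Of 24 genes for fatty acid synthesis, desaturation and elongation, 1 rose (elo-5), none fell, 20 had a positive log2 fold change and the median was 0.10. In 5 of the 24 (20.8%) the libraries at 10000 ng/g lay above those at 400 ng/g, beside 6.71% of all genes. One of these was pod-2, the acetyl-CoA carboxylase, at 797.3, 903.3 and 691.4 CPM against 1180, 1102 and 1198 CPM (log2 fold change 0.54, edgeR adjusted p = 0.263). Another was sbp-1, the sterol regulatory element binding factor that drives lipid synthesis, with a log2 fold change of 0.34 and an edgeR adjusted p of 0.44. The fatty acid synthase fasn-1 had a log2 fold change of 0.12 and overlapping groups (edgeR adjusted p = 0.828). Among 80 genes for lipolysis and fatty acid oxidation none passed, the median was -0.09, and 9 (11.2%) were higher and 11 (13.8%) lower without overlap, beside 6.71% and 6.32% of all genes. The acyl-CoA dehydrogenase acdh-1 showed how far replicates could differ: 8.62, 127.3 and 174.5 CPM at 400 ng/g against 5.81, 27.5 and 4.02 CPM at 10000 ng/g, a log2 fold change of -3.06 ± 0.96 at an adjusted p (edgeR) of 0.416.

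The aspartyl protease gene asp-12 (WBGene00017678, chromosome V, 8269210 to 8272056) was the gene of highest level among those that rose. It was at 324.3, 281.8 and 308.8 CPM at 400 ng/g and at 900.6, 717.1 and 708.6 CPM at 10000 ng/g. The controls, at 589.2, 463.4 and 444.3 CPM, lay between the doses without overlap, and the libraries at 2000 ng/g (309.7, 370.7 and 533.2 CPM) reached into the range at 400 ng/g. The log2 fold change was 1.35 ± 0.19 at an adjusted p (edgeR) of 0.0282. Its neighbours asp-6 and asp-5, 273 and 329 nt away, had log2 fold changes of 0.36 and 0.20 and did not pass (edgeR adjusted p of 0.466 and 0.557).

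Of 25 aspartyl and cathepsin-like proteases tested, most of which are known from the intestine, asp-12 alone rose and none fell. The median log2 fold change was 0.20, and in 10 of the 25 (40.0%) the libraries at 10000 ng/g lay above those at 400 ng/g, beside 6.71% of all genes. The cathepsin B-like genes cpr-1 and cpr-4, named after their values were seen, were among these. Levels of cpr-4 were 1483, 1364 and 1412 CPM at 400 ng/g and 2430, 2371 and 2332 CPM at 10000 ng/g (log2 fold change 0.74, edgeR adjusted p = 0.205), with controls from 1393 to 2161 CPM. Levels of cpr-1 were 2665, 2222 and 2670 CPM against 4661, 4111 and 4171 CPM (log2 fold change 0.78, edgeR adjusted p = 0.373). The 10 intestinal markers tested, 2 of which (asp-1 and cpr-1) are also proteases of this list, had a median log2 fold change of 0.13, and 4 of them (40.0%) were higher without overlap, beside the same 6.71%. Their mean log2 CPM relative to the controls was -0.26, 0.15 and 0.08 at 400 ng/g and 0.17, 0.14 and 0.29 at 10000 ng/g, and the part of this shift in the protease values was not tested. In whole worms, a change in the number of cells of a type and a change in RNA per cell cannot be told apart.

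The C-type lectin gene clec-17 (WBGene00008477, chromosome I, 12430028 to 12431500) was at 38, 35.6 and 45.7 CPM at 400 ng/g and at 79.6, 82.5 and 73.8 CPM at 10000 ng/g. The groups did not overlap, the controls (33.1 to 43.2 CPM) resembled 400 ng/g, and the log2 fold change was 0.98 ± 0.16 at an adjusted p (edgeR) of 0.0479. Of 146 C-type lectins tested, 1 rose and none fell, with a median of 0.09. Without overlap, 22 (15.1%) were higher and 5 (3.42%) lower, beside 6.71% and 6.32% of all genes. T01D3.6, described in the deposited annotation as an IgGFc-binding protein-like gene (WBGene00011330, chromosome V), was at 235.9, 226.0 and 250.8 CPM against 412.3, 442.2 and 371.8 CPM. Its log2 fold change of 0.78 ± 0.13 was the smallest among the 16 genes (edgeR adjusted p = 0.0479).

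The remaining genes that rose are known mainly by their domains. T08E11.1, which encodes a protein with an FTH domain (WBGene00020357, chromosome II), was at 1.57, 1.90 and 1.54 CPM at 400 ng/g and at 6.46, 7.37 and 6.08 CPM at 10000 ng/g, a log2 fold change of 1.99 ± 0.24 at an adjusted p (edgeR) of 0.0137. The F-box gene fbxa-136 (WBGene00007672, chromosome V), named for the domain through which F-box proteins join ubiquitin ligases, was at 2.28, 2.19 and 1.38 CPM against 7.38, 6.97 and 6.18 CPM, with controls between at 3.04 to 3.45 CPM. Its log2 fold change was 1.81 ± 0.27 at an adjusted p (edgeR) of 0.0282. Of 159 F-box genes tested, fbxa-136 was the only one to rise and none fell, with a median of 0.10. Y39B6A.27, an UNC93-like MFSD11 protein gene (WBGene00012686, chromosome V) overlapped by Y39B6A.84, was at 3.68, 2.86 and 3.97 CPM against 10.3, 12.3 and 7.57 CPM. F07E5.9, an SPK domain gene (WBGene00017214, chromosome II) overlapped by WBGene00023266, was at 1.42, 1.28 and 1.28 CPM against 4.08, 5.13 and 3.68 CPM. Neither pair of groups overlapped. Their log2 fold changes were 1.52 ± 0.22 for Y39B6A.27 and 1.69 ± 0.27 for F07E5.9, with edgeR adjusted p values of 0.0282 and 0.0479, and reads of the overlapping genes cannot be told apart where the counting ignores strand.

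The 16 genes were spread over 4 chromosomes, with 8 on V, 3 on II, 3 on IV and 2 on I. Chromosome V held 21.4% of the genes tested.

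**Figure D3:**
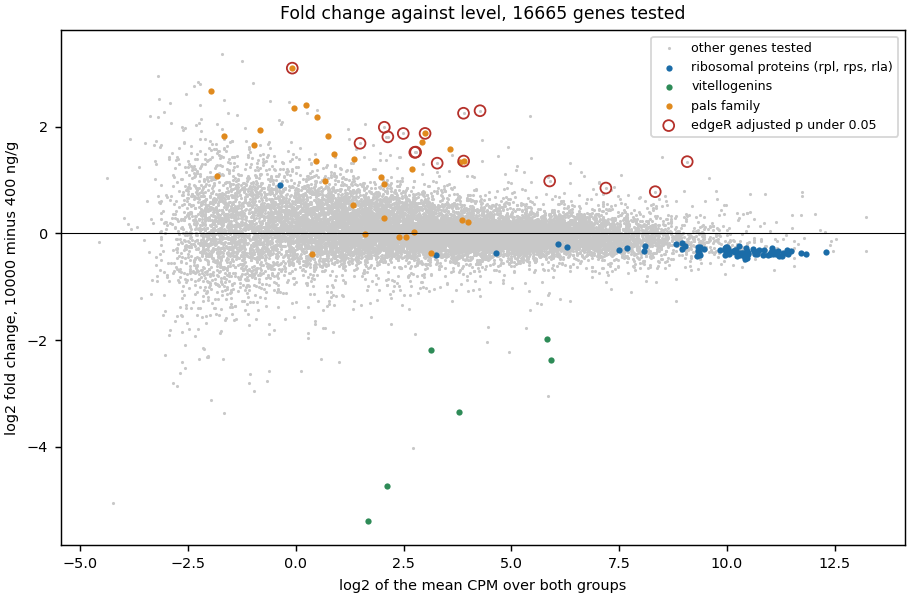
Log2 fold change of 10000 minus 400 ng/g (y) against log2 of the mean CPM over both doses (x) for the 16665 genes tested, with ringed points for the 16 genes past the threshold. Pals genes (orange) reach 3.10, ribosomal protein genes (blue) gather around -0.35 at high levels, and the 6 vitellogenins (green) lie between -5.40 and -1.98, none of them ringed.

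The next 4 genes by unadjusted p did not pass the threshold. The cuticle collagen gene col-101, which overlaps drl-1, was at 6.57, 6.65 and 6.39 CPM against 15.5, 11.4 and 11.1 CPM (log2 fold change 0.96, edgeR adjusted p = 0.0586). The pseudogene WBGene00015761 was unusual in that the libraries at 400 ng/g (2.53, 1.52 and 3.09 CPM) were below all 9 others. Its levels at 10000 ng/g (6.36, 5.89 and 6.37 CPM) lay within the range of the controls (5.56 to 6.69 CPM), with a log2 fold change of 1.38 and an edgeR adjusted p of 0.0586. The methanethiol oxidase gene semo-1 was at 100.1, 89.7 and 89.4 CPM against 168.9, 160.9 and 137.4 CPM (log2 fold change 0.74, edgeR adjusted p = 0.0623). The nematode-specific peptide gene nspc-1 was the only one of the 20 with lower values at 10000 ng/g. It was at 3.91, 3.91 and 3.13 CPM against 0.89, 1.60 and 1.63 CPM (log2 fold change -1.41, edgeR adjusted p = 0.0681). Members of its family are similar in sequence, and how reads shared among them were assigned is not shown by the counts.

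Acetylcholinesterases, the classical targets of many organophosphates, did not pass the threshold. Levels of ace-1 were 45.4, 33.9 and 31.3 CPM at 400 ng/g and 43.9, 45.5 and 39.9 CPM at 10000 ng/g, and those of ace-2 were 64, 69.9 and 63.3 CPM against 54.5, 62.2 and 63.1 CPM. The groups overlapped in ace-1, while in ace-2 all 3 libraries at 10000 ng/g were below those at 400 ng/g. In ace-3 all 3 were above, at 8.89, 8.33 and 8.69 CPM against 6.76, 8.0 and 8.12 CPM, and in ace-4 the groups overlapped. The log2 fold changes were 0.23 ± 0.15 for ace-1, -0.13 ± 0.09 for ace-2, 0.18 ± 0.16 for ace-3 and 0.39 ± 0.23 for ace-4, with edgeR adjusted p values of 0.634, 0.652, 0.718 and 0.601. Of these genes, ace-1, ace-2 and ace-3 overlap other annotated genes. Neuronal lists lay near the median of all genes in this contrast. The median was -0.02 for 26 synaptic and pan-neuronal genes and -0.08 for 30 FMRFamide-like peptides. For 68 neuropeptide-like proteins it was -0.03, and for 86 cys-loop receptor channels 0.05. No gene passed the threshold in any of them. Relative to controls, mean log2 CPM at 400 and 10000 ng/g was 0.26 and 0.29 for synaptic genes and 0.31 and 0.26 for FMRFamide-like peptides. It was 0.26 and 0.25 for neuropeptide-like proteins, 0.23 and 0.29 for cys-loop channels, and 0.39 and 0.44 for acetylcholinesterases and acetylcholine supply. At 2000 ng/g these lists had 0.13, -0.05, 0.01, 0.08 and 0.25. The difference of either dose from the controls was not tested here.

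The 6 vitellogenins, the yolk proteins, had lower values at 10000 ng/g but did not pass. The median log2 fold change was -2.86, all 6 were negative, 5 had an unadjusted p under 0.05, and 1 of the 6 (vit-4) was lower without overlap, beside 6.32% of all genes. Levels of vit-6 were 6.66, 78.4 and 219.4 CPM at 400 ng/g and 7.97, 43 and 7.86 CPM at 10000 ng/g, and the controls ran from 38.5 to 141.1 CPM. Replicate 1 at 400 ng/g was as low as the lowest libraries at 10000 ng/g, so the groups overlapped. The log2 fold change was -2.37 ± 1.02 at an adjusted p (edgeR) of 0.503. For vit-2, levels of 13.4, 73.4 and 186.4 CPM stood against 9.23, 49.9 and 10.2 CPM, a log2 fold change of -1.98 ± 0.87 at an adjusted p (edgeR) of 0.509.

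Cytosolic heat shock genes also had mostly lower values: of 19 tested, 16 had a negative log2 fold change, the median was -0.51, none passed, and 2 (10.5%) were lower and 1 (5.26%) higher without overlap, beside 6.32% and 6.71% of all genes. The chaperone gene hsp-90 was at 2582, 5150 and 3206 CPM at 400 ng/g and at 2343, 2428 and 2366 CPM at 10000 ng/g, without overlap but with replicate 2 at 400 ng/g far above the others. Its log2 fold change was -0.62 ± 0.23 at an adjusted p (edgeR) of 0.474. The constitutive chaperone hsp-1, at 2283, 4995 and 3164 CPM against 2618, 2489 and 2435 CPM, overlapped between the doses (log2 fold change -0.47, edgeR adjusted p = 0.562). The small heat shock gene hsp-16.2, named after its values were seen, was at 42.1, 171.5 and 82.9 CPM against 52.1, 39.6 and 34.1 CPM (log2 fold change -1.24, edgeR adjusted p = 0.497). The gene hsp-90 overlaps the annotated gene C47E8.4, as vit-2 does C42D8.9.

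**Figure D4:**
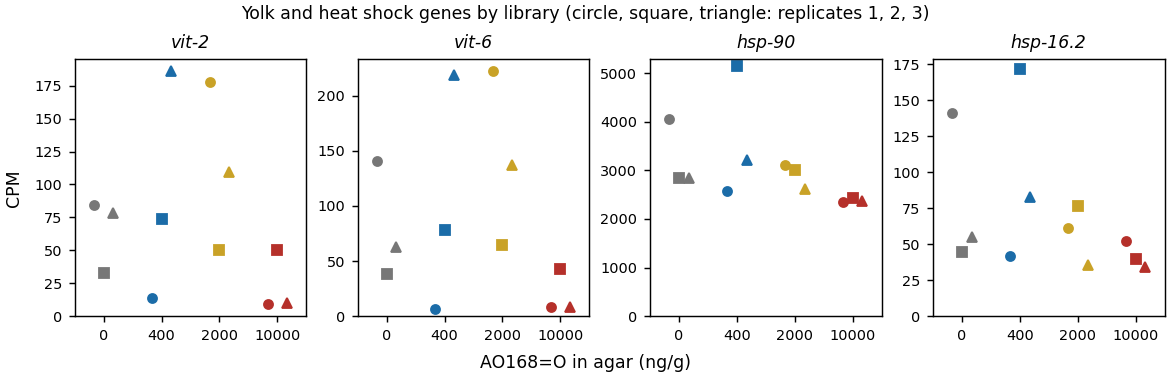
CPM (y, linear, each panel with its own scale) of the yolk genes vit-2 and vit-6 and the heat shock genes hsp-90 and hsp-16.2 in the 12 libraries by dose in ng/g (x). The 3 libraries at 400 ng/g spread widely in all 4 genes, from 6.66 to 219.4 CPM for vit-6 and from 2582 to 5150 CPM for hsp-90, whereas hsp-90 stays between 2343 and 2428 CPM at 10000 ng/g.

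Genes of protein synthesis and turnover did not pass the threshold in either direction. Among 84 genes for cytosolic ribosomal proteins the log2 fold change was negative in 83, with a median of -0.35 and a range from -0.49 to 0.91. Of these 84 genes, 43 had an unadjusted p under 0.05 and 29 (34.5%) were lower without overlap, beside 6.32% of all genes. For rpl-12, named after its values were seen, levels of 1241, 1683 and 1387 CPM stood against 1042, 1097 and 1132 CPM (log2 fold change -0.40 ± 0.13, edgeR adjusted p = 0.444). Averaged over the list, log2 CPM relative to the controls was -0.19, 0.33 and 0.03 at 400 ng/g and -0.36, -0.22 and -0.17 at 10000 ng/g, so replicate 1 at 400 ng/g fell within the range at 10000 ng/g. The log2 fold change was negative in all 31 proteasome subunit genes, and its median was -0.27, but none passed and none was separated without overlap. Their average was -0.42 in replicate 1 at 400 ng/g, below the range from -0.30 to -0.23 at 10000 ng/g, while replicates 2 and 3 had 0.29 and 0.07.

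Of the 11 proteins encoded in mitochondrial DNA that were tested, none passed, 6 (54.5%) were lower without overlap, beside 6.32% of all genes, and the median was -0.17. The nuclear-encoded respiratory chain had a median of -0.15 over 50 genes, with none past the threshold. Genes of the endoplasmic reticulum and mitochondrial unfolded protein responses had medians of -0.18 over 20 genes and -0.18 over 13 genes, again with none past the threshold. Glycolysis and citric acid cycle genes had a median of -0.05 over 45 genes.

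Germ-line and stage-dependent lists varied widely among libraries of the same dose. Of 29 major sperm protein genes, 28 had a positive log2 fold change and the median was 0.49, and of 62 other spermatogenesis genes, 57 were positive with a median of 0.44, but no gene of either list passed. Averaged over the major sperm proteins, log2 CPM relative to the controls was -2.13, -2.52 and -1.01 at 400 ng/g and -1.32, -0.83 and -1.84 at 10000 ng/g, and the 2 groups overlapped. The 9 sperm markers had a median of 0.46. Oogenesis and eggshell genes (38 tested), germ-line identity genes (40) and meiotic chromosome genes (46) had medians of -0.01, -0.02 and 0.08. Adult cuticle genes, a sign of developmental stage, averaged -0.60, -2.08 and -0.40 at 400 ng/g and -1.09, -0.44 and -1.54 at 10000 ng/g. The part of these stage-dependent differences in the other results was not tested.

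Cuticle collagens named col had a median of -0.26 over 140 genes, of which 96 were negative, and other collagens named by phenotype one of -0.33 over 14, with none past the threshold in either list. Furrow collagens (6 tested) had a median of -0.31, molting and apical matrix genes (28) one of -0.06 and hedgehog-related and patched-related genes (79) one of -0.13. In the insulin receptor pathway, 17 genes tested, none passed and the median was 0.16. The metallothionein gene mtl-1, a target of that pathway, was at 116.8, 63.9 and 179.3 CPM against 260.5, 269.4 and 235.8 CPM, without overlap, with a log2 fold change of 1.09 and an edgeR adjusted p of 0.452.

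Among the fits that left out a single library, the one without replicate 1 at 400 ng/g gave the most calls. Among 16943 genes tested in the 11 remaining libraries, 365 (2.15%) were higher and 375 (2.21%) were lower at 10000 ng/g at an edgeR adjusted p under 0.05, and all 16 genes described above were among those higher. The groups were then 3 libraries against 2, and the choice to describe this result was made after the spread at 400 ng/g was seen. All genes named from here on were chosen after their values were seen. Among the 16 genes, ddn-1 had a log2 fold change of 2.21, pals-29 one of 3.66 and asp-12 one of 1.40 in that fit.

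**Figure D5:**
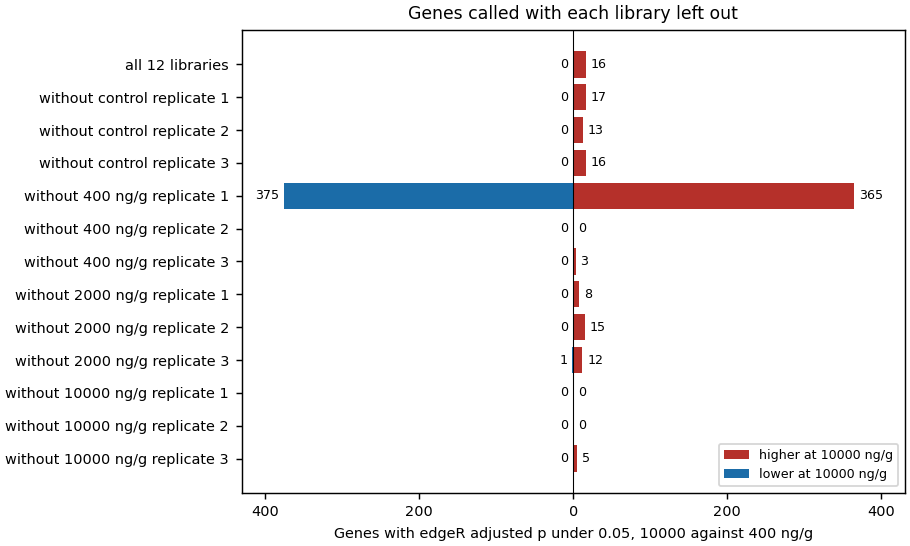
Number of genes with an edgeR adjusted p under 0.05, higher (red, right) and lower (blue, left) at 10000 than at 400 ng/g (x), with all 12 libraries and with each library left out in turn (y). Without replicate 1 at 400 ng/g the counts are 365 higher and 375 lower, and without any other single library they are at most 17 higher and 1 lower.

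In that fit, without replicate 1 at 400 ng/g, 13 pals genes rose and none fell out of 33 tested, and 16 of 37 genes with the ALS2CR12 signature rose, beside 2.15% of all genes. Those added to the earlier ones included pals-26 (log2 fold change 2.65, edgeR adjusted p = 0.0175, against 0.338 with all libraries). Another was pals-14 (1.56, edgeR adjusted p = 0.0339, against 0.0871). With all libraries counted, pals-26 was at 6.89, 0.96 and 2.75 CPM at 400 ng/g and 11.4, 11.3 and 12.6 CPM at 10000 ng/g, so the omitted library was the nearest to the higher dose.

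Fatty acid and digestive genes also held calls in that fit, beside 2.15% of all genes higher and 2.21% lower. Of 24 genes for fatty acid synthesis, desaturation and elongation 5 rose, among them elo-6 (0.80, edgeR adjusted p = 0.0189), pod-2 (0.55, edgeR adjusted p = 0.0457) and the desaturase gene fat-5 (2.76, edgeR adjusted p = 0.0218, against a log2 fold change of 0.23 with all libraries). Of 80 genes for lipolysis and fatty acid oxidation 7 rose and 9 fell. Those that rose included ech-9, an enoyl-CoA hydratase-like gene (3.13, edgeR adjusted p = 0.0175). Those that fell included acdh-1 (-3.61, edgeR adjusted p = 0.0292) and the peroxisomal thiolase gene daf-22 (-0.85, edgeR adjusted p = 0.0339), which acts in the synthesis of ascaroside pheromones. Of 25 aspartyl and cathepsin-like proteases 5 rose, including cpr-3 (1.07) and cpr-4 (0.78), with edgeR adjusted p values of 0.0175 and 0.0379. One of the 5, cpr-2, had a log2 fold change of 2.27 without the library and -4.02 with it, since replicate 1 at 400 ng/g held 36.9 CPM and the other 11 libraries less than 1 CPM each.

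Some collagen genes and most proteasome subunit genes fell in the same fit, beside 2.21% of all genes. Of 143 collagens named col 20 fell and 1 rose (col-101), and 8 of 14 collagens named by phenotype fell, including dpy-13 (-0.74, edgeR adjusted p = 0.0192) and sqt-3 (-0.60, edgeR adjusted p = 0.0295). No call was made among 10 adult cuticle genes, whose median was 0.44, or among 6 furrow collagens, with a median of -0.44. Of 79 hedgehog-related and patched-related genes 9 fell and 1 rose, and 6 of 33 astacin metalloproteases fell. Of 31 proteasome subunit genes 18 fell and none rose. For pbs-7, a subunit of the catalytic core, the log2 fold change was -0.64 at an adjusted p (edgeR) of 0.023, against -0.43 and 0.516 with all libraries. Its levels were 96.4, 186.5 and 154.0 CPM at 400 ng/g and 103.9, 111.9 and 109.0 CPM at 10000 ng/g, and the omitted library was the lowest of all 6.

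For detoxification, immune, stress and yolk genes, the counts without that library are read beside 2.15% of all genes higher and 2.21% lower. The glutathione transferases had 1 gene higher (gst-19) and 5 lower of 46, including gst-7 (-0.74, edgeR adjusted p = 0.0195) and gst-6 (-0.77, edgeR adjusted p = 0.0434). The UDP-glucuronosyltransferases had 1 higher and 6 lower of 64, and ugt-8 had a log2 fold change of -1.17 at an adjusted p (edgeR) of 0.0175. The cytochrome P450 genes had 3 higher and 3 lower of 71. Of those higher, cyp-25A2 and cyp-25A1 had log2 fold changes of 0.58 and 1.25, against -0.13 and 0.04 with all libraries. The flavin monooxygenase gene fmo-2 rose (log2 fold change 1.5, edgeR adjusted p = 0.0195), while fmo-5 fell (-0.73, edgeR adjusted p = 0.0294). The C-type lectins had 9 higher and 4 lower of 152. Of those higher, clec-47 and clec-3 had log2 fold changes of 2.67 and 3.13, against -2.05 and -0.83 with all libraries. The others called higher were positive in both fits. Of the heat shock genes 2 fell, among them hsp-90 (-0.80, edgeR adjusted p = 0.0443), and of the vitellogenins 1 fell, vit-4 (-5.96, edgeR adjusted p = 0.0357). Of 84 ribosomal protein genes 3 fell and none rose, and neither list of sperm genes held a call.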

How the data were processed

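Poly(A) RNA of 12 whole-worm libraries was sequenced as 150-bp paired ends, per the labels' protocols. The authors deposited raw read counts per gene and FPKM values. The submitters' processing notes name HISAT2 2.2.1, CASAVA, DESeq2 1.42.0 and featureCounts 2.0.6. Strand setting and build were not given in the sources used here, and 46926 of 46987 features had WBcel235 coordinates (Ensembl release 115), which are printed. The deposited FPKM values served only to compare levels between genes.

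Counts were tested with edgeR 4.0.16 in R 4.3.3: TMM factors, filterByExpr, a quasi-likelihood fit of all 12 libraries with a mean per group (8 residual degrees of freedom) and a two-sided test of 10000 minus 400 ng/g. P-values were adjusted over all genes tested by the Benjamini-Hochberg method (threshold 0.05). Each standard error was obtained by dividing a log2 fold change by the root of its F statistic. CPM values use TMM-scaled library sizes; list averages use log2 CPM with a prior count of 2. The common dispersion corresponds to a biological coefficient of variation of 24.1%. An exact test of 3 libraries against 3 cannot go below p = 0.1. The code was tested on simulated data.

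The rule for named genes took up to 12 rises and falls past the threshold with at least 5 CPM and no overlap, up to 2 per list and direction, the smallest unadjusted p up to 20 genes, the 4 acetylcholinesterases, and the 2 most abundant members of lists whose median exceeded 0.5. Other genes were named after their values were seen. The comparison, its members and the 63 lists were chosen with earlier results of these data known. Alternatives were other scaling factors, no filter, DESeq2 1.42.0, only the 6 libraries, a replicate block, a 1.5-fold minimum, leaving out each library, and limma 3.58.1 voom with library weights, the last added after the data were seen.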

Additional observations from a re-analysis of the deposited data

How the results depend on the processing

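The 16 genes higher and 0 lower became 15 and 0 with RLE or upper-quartile factors, 23 and 2 with no low-count filter, 119 and 43 with DESeq2 and 0 and 0 with only the 6 libraries compared. With the replicate number as a block, 4 were higher and 0 lower. Between 400 and 10000 ng/g, deviations of same-numbered libraries correlated at -0.15, -0.14 and -0.31. Whether the numbers pair the samples over all dose groups was not tested. With limma-voom and library weights, added after seeing the data, 2579 were higher and 2207 lower, with weights of 0.133, 0.311 and 5.93 for replicates 1, 2 and 3 at 400 ng/g. Leaving out each library in turn gave 0 to 365 higher and 0 to 375 lower. The libraries that moved the counts by over 1.5 times were replicate 1 at 400 ng/g (365 higher, 375 lower), replicate 2 (0, 0) and replicate 3 (3, 0) at 400 ng/g, replicates 1 (0, 0), 2 (0, 0) and 3 (5, 0) at 10000 ng/g, and replicates 1 (8, 0) and 3 (12, 1) at 2000 ng/g. Of genes at least 2-fold higher (13) and lower (0), no filter left 2 lower, DESeq2 gave 63 and 12, the 6 libraries 0 higher, the block 4 higher, voom 519 and 195, a test against 1.5-fold 0 higher, and leaving out libraries 0 to 107 and 0 to 51. The cause of these shifts was not tested, apart from the fewer libraries that some fits hold. Of 589 values for the 31 genes named by the rule, 442 kept their direction and side of the threshold, 124 lost it, 23 gained it and 0 reversed. Genes named after their values were seen were not counted there. Among these, cpr-2 changed direction without replicate 1 at 400 ng/g. Each of the 16 genes kept its call in 3 to 9 of the 12 fits without a library. Of 1197 list medians, 31 moved by over 1 SD of the libraries. Low-count genes such as pals-29 rest on few reads, which limits the precision of their fold changes.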

Other observations

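Lists that enter no comparison above held no gene past the threshold with all 12 libraries. Immune and surface lists had median log2 fold changes of 0.06 for lysozymes, saposin-like and thaumatin-like genes (43 tested, 7 higher and 2 lower without overlap), 0.07 for epidermal antimicrobial peptides (15 tested) and 0.10 for MATH and BTB domain genes (70 tested, 6 higher and 4 lower without overlap), beside 6.71% of all genes higher and 6.32% lower without overlap. Within the last, the ubiquitin ligase adaptor gene bath-25, named after its values were seen, was at 0.23, 0.47 and 0.55 CPM at 400 ng/g, below the controls (1.35 to 1.81 CPM), and at 1.89, 2.41 and 1.60 CPM at 10000 ng/g, a log2 fold change of 2.26 that missed the threshold (edgeR adjusted p = 0.0719). Medians were -0.14 for metallothioneins and metal handling (31 tested), 0.08 for regulators of foreign compound and oxidant responses (28), -0.14 for muscle sarcomere genes (37), 0.06 for insulin-like peptides (27), -0.06 for DNA replication and cell cycle genes (71), -0.08 for histone genes (53) and -0.17 for nematode-specific peptides (33).

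The marker lists of hypodermis, body wall muscle, pharynx, neurons, germ line and oocytes had medians of -0.04, -0.13, -0.004, -0.03, -0.03 and -0.02. In the body wall muscle markers the mean log2 CPM relative to the controls was -0.41 in replicate 1 at 400 ng/g, 0.39 in replicate 2 and 0.16 in replicate 3, and between -0.08 and 0.04 at 10000 ng/g.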
